A study of Rattus norvegicus with 24 samples.

Results

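The nuclear-encoded subunits of the mitochondrial respiratory chain and ATP synthase were described by the messenger RNA (mRNA) of 80 rat genes, out of 14217 genes that the platform annotation names by a single symbol. Members were probe sets with 1 gene symbol that starts with Ndufa, Ndufb, Ndufc, Ndufs or Ndufv (complex I, 36 genes), Sdha to Sdhd (complex II, 4 genes), Uqcr (complex III, 7 genes), Cox4 to Cox8 (complex IV, 17 genes) or Atp5 (complex V, 16 genes), without the Ndufaf assembly factors. A gene with several probe sets was represented by the brightest. Sorting by symbol puts some proteins with their old family: Ndufa4 is now counted with complex IV, Cox7a2l helps to join complexes III and IV, and Atp5if1 is an inhibitor of ATP synthase.

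RNA was measured on 24 Affymetrix Rat RAE 230 2.0 arrays, 1 for each of 4 groups of male rats in each of 6 brain regions. The groups were spontaneously hypertensive rats (SHR), an inbred strain and the genetic model of attention deficit hyperactivity disorder; Wistar-Kyoto rats (WKY), its control strain; the environmental model, Sprague-Dawley rats that received polychlorinated biphenyls (SD-PCB); and Sprague-Dawley rats without them (SD). The series used 8 SHR, 8 WKY, 4 SD-PCB and 8 SD rats, taken at postnatal day 55 to 65, and the sources used here do not say how many of them contributed to an array. Dose and route of the exposure are likewise not given, and SHR and WKY also differ in blood pressure. The regions were dorsal striatum (DS), ventral striatum (VS), prefrontal cortex (PFC), hippocampus (HC), substantia nigra with the ventral tegmental area (substantia nigra/VTA) and the vermis of the cerebellum.

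Complex I takes electrons from NADH and complex II from succinate. Complex III passes them on to cytochrome c, complex IV hands them to oxygen, and complex V, the ATP synthase, uses the proton gradient that complexes I, III and IV build. Neurons depend on this chain for the energy of ion pumping and transmission, and most subunit genes are active in all tissues, with a few isoforms kept for muscle, testis or low oxygen.

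Values are linear MAS5 signals, set on every array to a trimmed mean close to 500. Differences are on the log2(signal + 1) scale, from a limma fit with group and region as terms over 15521 probe sets, with Benjamini-Hochberg adjustment over all of them and a threshold of 0.05. Of the 80 members 73 passed the filter on dim probe sets (35, 4, 7, 11 and 16 of complexes I to V), out of 9009 genes that did, and 61 lay in the brightest 25% of tested probe sets. A group has 1 array per region, so the 6 regions serve as its repeated values. The design describes 6 regions taken from 1 set of brains per group and does not say which rats are on which array, so the p-values between groups measure agreement between regions and say nothing of the spread between animals. The 4 arrays of a region come from the 4 groups, and so from different animals.

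Arrays differed in brightness by group, with a median signal of 152.9 ± 17.0 on SHR, 121.1 ± 16.2 on WKY, 98.3 ± 13.8 on SD-PCB and 162.9 ± 19.7 on SD arrays (SD, n = 6 each), so that centring arrays on their median shifts all genes together. The median signal of the 80 members was 3018 ± 298 on SHR, 2498 ± 247 on WKY, 2509 ± 254 on SD-PCB and 2517 ± 256 on SD arrays. Region labels were checked by known markers. Slc6a3, the dopamine transporter, had a signal of 8411 in SHR, 5916 in WKY, 955 in SD-PCB and 7789 in SD on the substantia nigra/VTA arrays, and at most 121.7 elsewhere. Th, which makes dopamine, had 3742 in SHR, 1367 in WKY, 217 in SD-PCB and 2222 in SD there, and the SD-PCB value lay below 1 dorsal striatum array (249). Gabra6, a marker of cerebellar granule cells, had a signal of 2297 on the WKY prefrontal cortex array against 28.8 to 97.0 on the other 3 prefrontal arrays, and 17280 to 24460 in the vermis. Results that rest on either array are also given without it.

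**Figure D1:**
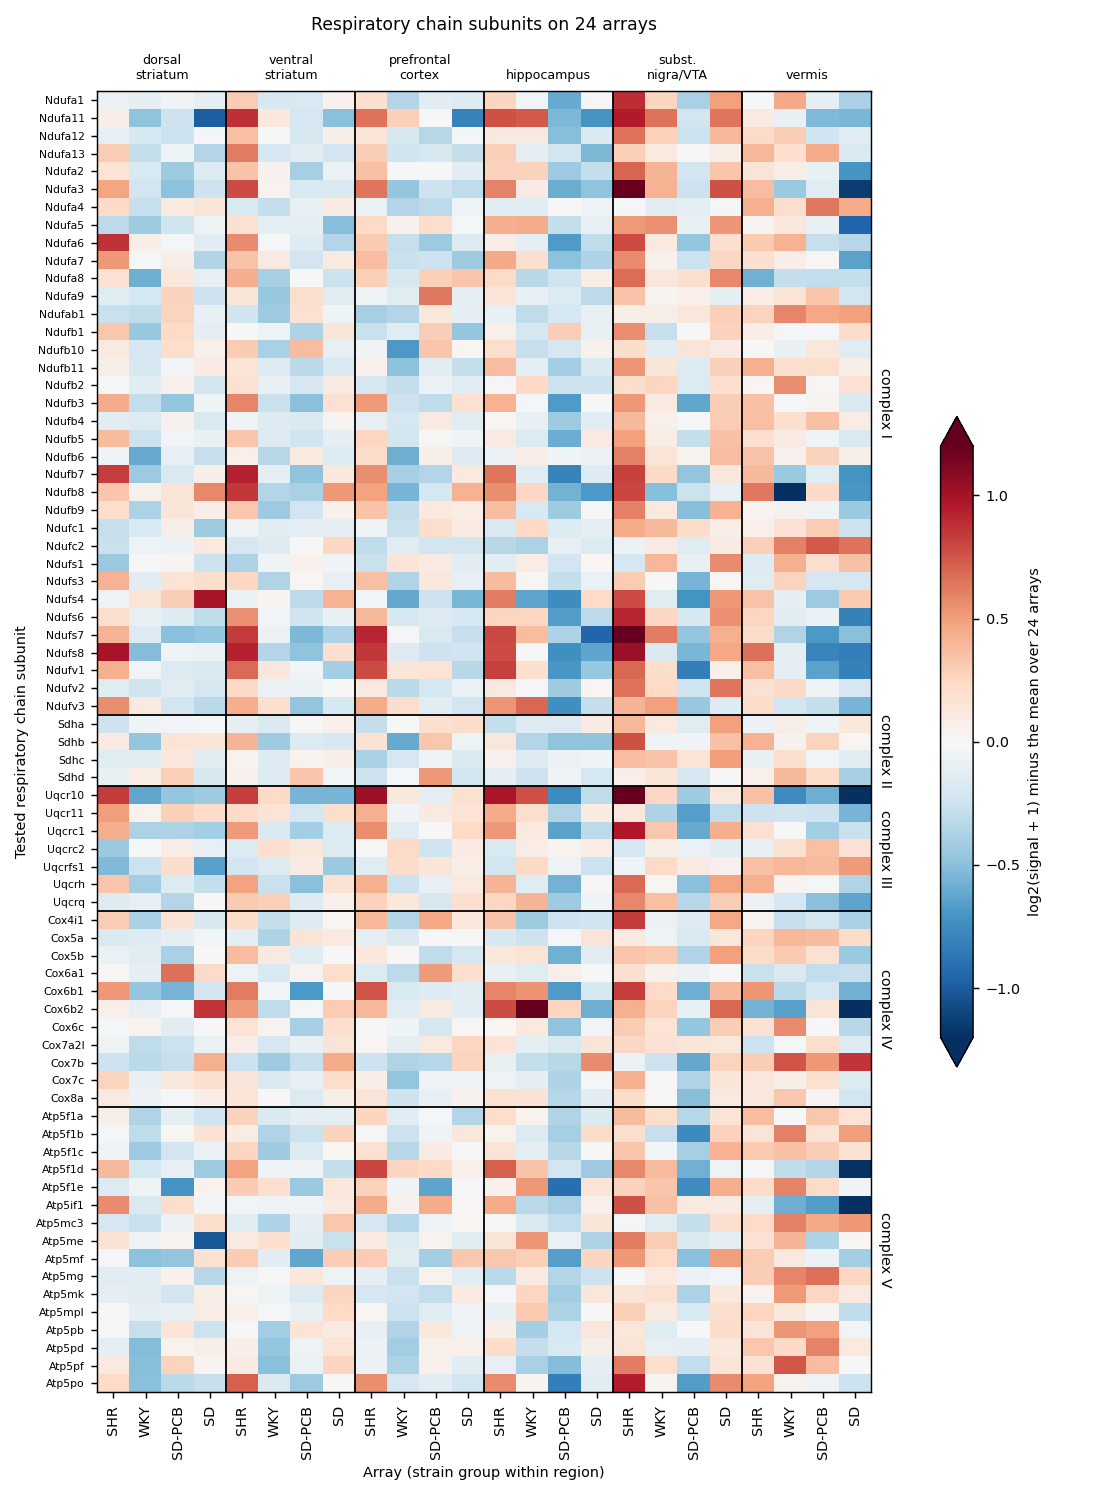
Heat map of the 73 tested subunits (rows, by complex) on 24 arrays (columns, 4 groups within 6 regions), as log2(signal + 1) minus the subunit's mean over the arrays, with the colour scale ending at 1.2 on either side. SHR columns are mostly red for complex I, and the SD-PCB hippocampus and substantia nigra/VTA columns mostly blue.

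The standard deviation of log2 signal over the 24 arrays had a median of 0.31 over the 73 tested members (0.17 to 0.87), against 0.35 over genes in the brightest 25% and 0.47 over all tested genes. Group accounted for a median of 40.7% of a member's sum of squares and region for 25.6%, against 28.3% and 44.5% over the brightest genes and 28.7% and 37.7% over all tested genes. Ndufb3 (79.1%) and Ndufs8 (77.4%) had the largest share for group, and Ndufc2 (80.4%) and Atp5mg (71.8%) the largest for region. On the deposited scaling SHR had the highest group mean for 64.4% of the 73 members (43.5% of all tested genes, 26.1% of the brightest) and SD-PCB the lowest for 47.9% (33.2% of all, 20.9% of the brightest). Substantia nigra/VTA had the highest region mean for 49.3% of members (26.6% of all, 28.4% of the brightest) and vermis for 35.6% (25.2% of all, 29.0% of the brightest).

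The 7 members that did not pass the filter were mostly isoforms known from other tissues. Cox6a2, Cox7a1 and Cox8b, the heart and muscle forms of complex IV subunits, had signals of 3.45 to 192.4, 7.02 to 270.4 and 3.82 to 128.3 over the 24 arrays. Cox4i2, a lung form, and Ndufa4l2, which low oxygen induces, had signals of 17.0 to 183.4 and 13.3 to 176.5. Cox7b2, known from testis, had 5.93 to 180.8, and Cox6c-ps1, a pseudogene, 6.22 to 330.4. No detection calls were used, and no difference is given for these dim probe sets. Of their ubiquitous counterparts, Cox4i1 had signals of 2947 to 7071 and Cox7b of 12700 to 35200 over the 24 arrays, and Cox7a2, the counterpart of Cox7a1, was not analysed here because its probe set carries several symbols. Cox6b2, the testis form of Cox6b1, passed the filter with a mean signal of 144.1 and the largest spread of the tested members, and had a signal of 10.6 on the SD vermis array.

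The first comparison asks how the genetic model differs from its control strain. Messenger RNAs of the chain were higher in SHR than in WKY for 33 of the 73 tested members (45.2%) and lower for 2 (2.74%), although the same fit on arrays centred on their median gave 5 higher and 18 lower. Of all 9009 genes tested, 20.7% were higher and 13% lower, and of the 2652 in the brightest 25%, 393 were higher and 606 lower. On centred arrays 4.5% of all genes were higher and 33.6% lower. On the deposited scaling the medians were as follows. The median difference was 0.28 over the members, 0.11 over all genes and -0.03 over the brightest genes. The members' median thus lay 0.16 above that of all genes, and 0.26 above it after quantile normalization. Centring, which moves all genes by 1 amount, shifted the median of all genes to -0.22 and of the members to -0.06. The difference was positive in all 6 regions for 41.1% of members, 22.4% of all genes and 14.7% of the brightest genes, and negative in all 6 for 4.11%, 11.2% and 19.5% of the same sets. Without the WKY prefrontal cortex array with cerebellar transcripts 27 were higher and 2 lower, with a median of 0.24. Of all genes 15.3% were higher and 10.2% lower without it, with a median of 0.11. After centring, Ndufs8, Ndufb7, Ndufb8 and Uqcr10 still passed as higher and Ndufs1 and Uqcrc2 as lower, while Sdhb, Uqcrh, Cox4i1, Cox6b1 and Atp5po stayed positive but did not pass (limma adjusted p of 0.050 to 0.099). Of the 33 higher members 4 became negative after centring (Ndufa4, Atp5f1a, Uqcr11 and Cox7c).

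Complex I held most of the higher members, 19 of 35, with 1 lower and a median of 0.37. Ndufs8, a core subunit that holds iron-sulfur clusters of the arm facing the matrix, had signals of 786 to 1017 (median 916) in SHR and 344 to 498 (median 442) in WKY. All 6 SHR arrays lay above all 6 WKY arrays, and the difference was 1.09 ± 0.17 (SE, n = 6 regions, limma adjusted p = 8.19e-05). The SD-PCB (285 to 480) and SD (281 to 683) arrays also lay below every SHR array. Ndufb7, an accessory subunit of the membrane arm, had signals of 2816 to 4067 (median 3560) in SHR and 1574 to 2531 (median 1791) in WKY, again without overlap, a difference of 0.91 ± 0.14 (adjusted p = 5.76e-05, limma). Ndufb8, another membrane-arm subunit, had signals of 362 to 516 (median 433) in SHR and 100 to 341 (median 213) in WKY, which do not overlap. Its difference was 1.05 ± 0.25 (adjusted p = 0.0037, limma), ranged from 0.28 in dorsal striatum to 2.14 in vermis, and was 0.83 without the vermis.

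Of the nuclear-encoded core subunits of complex I that were measured, Ndufs8, Ndufs7 (0.69 ± 0.14), Ndufv1 (0.54 ± 0.14) and Ndufs3 (0.36 ± 0.13) were higher in SHR, Ndufs3 not in the vermis (-0.41 there). Ndufv2 did not pass the test (0.22 ± 0.11). Ndufs1, the largest core subunit, went the other way. It had signals of 1631 to 2014 (median 1874) in SHR and 2141 to 2990 (median 2422) in WKY, so that every SHR array lay below every WKY array, with a difference of -0.44 ± 0.10 (adjusted p = 0.0032, limma). Core subunits of 1 enzyme thus differed between the strains in both directions. Among the accessory subunits, Ndufa3 (0.78 ± 0.15), Ndufb3 (0.59 ± 0.11), Ndufb9 (0.50 ± 0.13) and Ndufa8 (0.48 ± 0.12) were higher, Ndufa8 not in the vermis (-0.30 there). Ndufa7 was higher by its brightest probe set (0.38 ± 0.13), while its other probe set, also bright, had -0.49 ± 0.20 and did not pass (adjusted p = 0.063, limma). The direction for Ndufa7 is therefore uncertain.

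**Figure D2:**
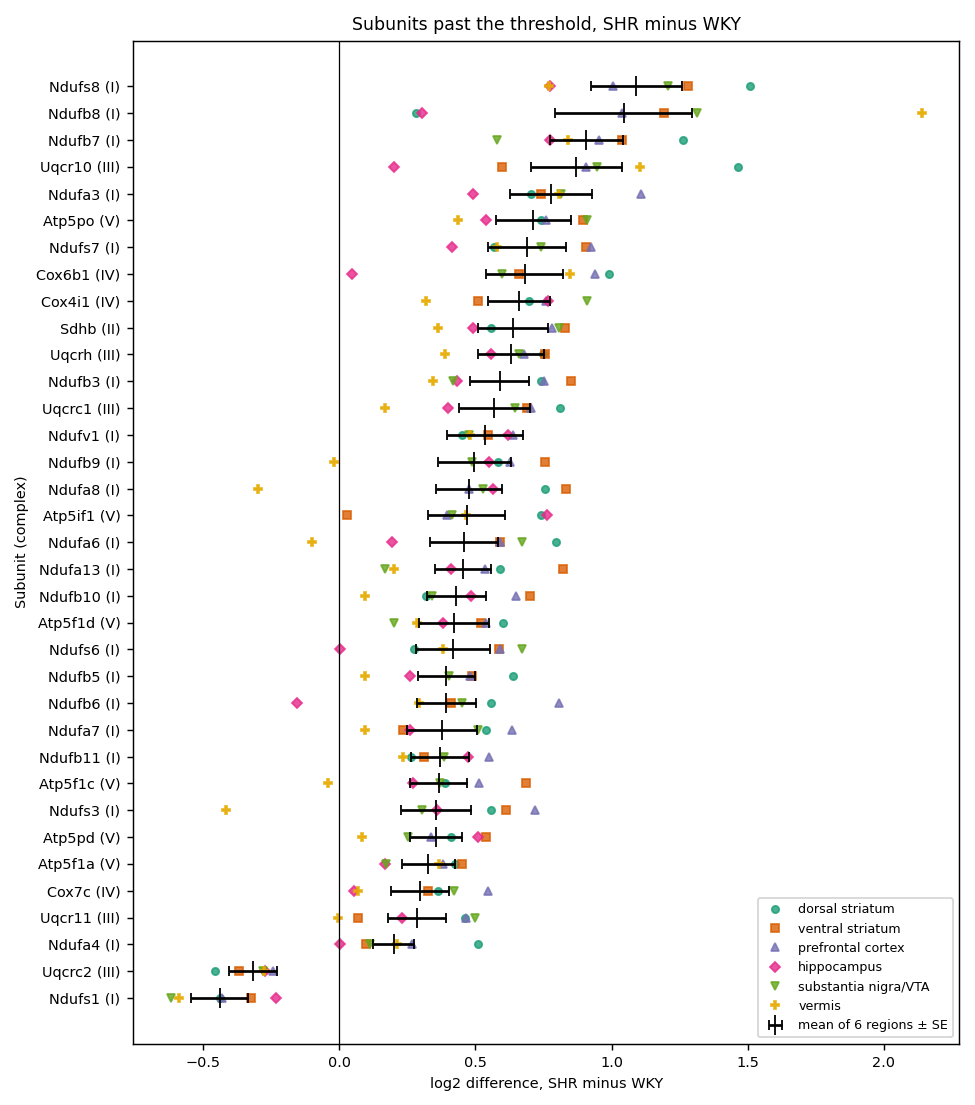
Log2 difference, SHR minus WKY, in each of the 6 regions (coloured symbols, 1 array against 1 array) and their mean ± SE (black) for the 35 subunits past the threshold, with the complex in brackets. Of the means, 33 lie right of 0 and those of Uqcrc2 and Ndufs1 left of it, on the deposited scaling. Arrays centred on their median gave 5 higher and 18 lower, beside 4.5% and 33.6% of all genes.

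In complex II 1 of 4 subunits was higher. Sdhb, the iron-sulfur subunit, had signals of 1282 to 2033 (median 1474) in SHR and 791 to 1245 (median 917) in WKY, which do not overlap, with a difference of 0.64 ± 0.13 (adjusted p = 9.10e-04, limma). Sdha, the flavoprotein to which Sdhb binds, had -0.07 ± 0.10, and the membrane anchors Sdhc and Sdhd had -0.01 ± 0.09 and -0.08 ± 0.12, none of them past the threshold. Only the Sdhb arrays were thus separated by strain.

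Complex III had 4 higher and 1 lower of 7. Uqcr10, a small subunit, had signals of 2408 to 4305 (median 3539) in SHR and 1119 to 3226 (median 2132) in WKY. Those ranges overlap, yet the difference was positive in all 6 regions (0.87 ± 0.17, adjusted p = 6.29e-04, limma). Uqcrh, the hinge protein at the cytochrome c docking site, had signals of 5416 to 6885 (median 5765) in SHR and 3220 to 4406 (median 3743) in WKY, a difference of 0.63 ± 0.12 with no overlap. The core proteins of the complex parted: Uqcrc1 was higher in SHR (0.57 ± 0.13) and its partner Uqcrc2 lower. Uqcrc2 had signals of 2492 to 3388 (median 3012) in SHR and 3417 to 4007 (median 3736) in WKY, a difference of -0.32 ± 0.09 (adjusted p = 0.0100, limma), and its second, dimmer probe set gave -0.81 ± 0.17 (adjusted p = 0.0016, limma). With both probe sets lower, its direction does not rest on 1 probe set. Uqcrfs1, the Rieske iron-sulfur protein, was negative in all 6 regions but did not pass the test (-0.25 ± 0.11, adjusted p = 0.087, limma).

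In complex IV 3 of 11 subunits were higher and none lower. Cox4i1, the ubiquitous form of the subunit through which ATP regulates the enzyme, had signals of 4059 to 7071 (median 4946) in SHR and 2947 to 3759 (median 3163) in WKY. Every SHR array lay above every WKY array, and the difference was 0.66 ± 0.11 (adjusted p = 2.40e-04, limma). Cox6b1, which faces the intermembrane space, had signals of 4825 to 5956 (median 5108) in SHR and 2428 to 4876 (median 3110) in WKY, a difference of 0.68 ± 0.14 (adjusted p = 0.0012, limma) that was only 0.05 in the hippocampus. Cox7c, a small membrane subunit, also passed (0.30 ± 0.11), but turned negative when arrays were centred. Cox5a, Cox5b, Cox6a1, Cox6c, Cox7b and Cox8a had differences between -0.04 and 0.13 and did not pass.

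Complex V had 6 higher and none lower of 16. Atp5po, the subunit that ties the catalytic head of the synthase to its stalk, had signals of 4899 to 7984 (median 6139) in SHR and 2930 to 4284 (median 3955) in WKY, with no overlap and a difference of 0.71 ± 0.14 (adjusted p = 6.35e-04, limma). Its second, dimmer probe set had 0.19 ± 0.16 and did not pass. Atp5if1, which blocks the enzyme when it would run backwards, was higher by 0.47 ± 0.14, Atp5f1a, Atp5f1c and Atp5f1d of the soluble part by 0.33 ± 0.10, 0.37 ± 0.10 and 0.42 ± 0.13, and Atp5pd by 0.36 ± 0.09, of which Atp5f1a turned negative when arrays were centred. Atp5f1b, the catalytic subunit, had 0.20 ± 0.11 and did not pass (adjusted p = 0.18, limma).

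The strain difference was not equal across regions. The median over the 73 members was 0.38 in prefrontal cortex, 0.33 in ventral striatum, 0.31 in substantia nigra/VTA, 0.29 in dorsal striatum and 0.20 in hippocampus, where 55 to 66 members were positive. In the vermis it was 0.07, with 37 of 73 positive. Over all genes the medians were 0.10 to 0.15 in the first 5 regions and 0.05 in the vermis. The prefrontal value uses the WKY array with cerebellar transcripts, the only one of its group there, and has no value without it. With 1 array per group and region these are values without a test. Leaving out the vermis gave 41 members past the threshold in place of 35. Of all genes it gave 24.3% higher and 14.7% lower, in place of 20.7% and 13%.

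Around the chain, genes that serve it were counted in the same fit, to be read beside the 20.7% higher and 13% lower of all genes and on the deposited scaling. Of 73 mitochondrial ribosomal proteins, which make the mitochondrially encoded subunits, 26 were higher in SHR and 1 lower (Mrps6 1.70 ± 0.17, Mrpl38 1.40 ± 0.29; Mrps14 -0.40 ± 0.11). Of 14 glycolytic genes 8 were higher and none lower (Pfkl 0.89 ± 0.19, Gpi 0.82 ± 0.12), and of 13 carriers and pores 3 were higher, among them the ADP/ATP carrier Slc25a5 (0.48 ± 0.10). The 16 genes of the citric acid cycle had 1 higher (Mdh2 0.65 ± 0.10) and 2 lower (citrate synthase Cs -0.81 ± 0.19, Sucla2 -0.41 ± 0.13). Assembly factors were mixed, 10 higher and 5 lower of 38, with the complex III factor Uqcc2 at 0.86 ± 0.14 and the complex IV factor Pet100 at -1.60 ± 0.17. Of 14 regulators of mitochondrial genes 2 were higher (Tfb2m 0.50 ± 0.13, Polg 0.37 ± 0.14) and 3 lower in SHR: the coactivator Ppargc1a (-0.58 ± 0.13), the ETS factor Gabpa (-0.94 ± 0.28) and Yy1 (-0.52 ± 0.08). Those 3 are known as activators of subunit genes. The 14 regulators as a list had a median difference of 0.27, beside 0.28 over the members, and a link between the lists was not tested. After centring, 2 ribosomal proteins were higher and 12 lower, 2 glycolytic genes were higher and 2 lower, and 5 regulators were lower and none higher. Carriers and pores then had 0 higher and 3 lower, genes of the citric acid cycle 1 and 6, and assembly factors 1 and 8. Of all genes 4.5% were then higher and 33.6% lower.

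Markers of other cells moved on the same arrays. Meningeal markers were higher in SHR for 6 of 7 genes, with a summed signal, over all listed genes on the array here and below, of 3907 to 19090 in SHR and 2170 to 7058 in WKY. Vessel markers were higher for 4 of 5 tested genes (3191 to 6077 in SHR, 1309 to 3434 in WKY), microglial markers for 4 of 7 (1226 to 3152 in SHR, 952 to 1970 in WKY), and the 2 blood markers summed to 4705 to 10920 in SHR and 1232 to 3363 in WKY. Neuronal markers had a median difference of -0.03 over 8 tested genes and a summed signal of 45140 to 66750 in SHR and 47430 to 76280 in WKY. Astrocyte markers were higher for 3 and lower for 1 of 8, and oligodendrocyte markers higher for 2 and lower for 0 of 7. Centred, 6 neuronal markers were lower and none higher, beside 33.6% and 4.5% of all genes. Of the others, 6 meningeal, 4 vessel and 3 microglial markers were then higher. Astrocyte markers had 1 higher and 2 lower, and oligodendrocyte markers 0 and 1. The part of tissue composition in the subunit differences was not tested, and in whole tissue a change in cell numbers and a change in RNA per cell cannot be told apart.

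Promoters of the members were read from RefSeq (GRCr8 assembly, 250 bases before to 50 after the start site of the entry), in which 72 of the 80 members had an entry. For Ndufs8 and some others that start site is not the outer end of the gene, and positions below are counted from the start site. They were searched on both strands for the letters of sites of factors known to drive subunit genes. GCGCA, any base, GCGC, the core of the NRF1 site, was in 18.1% of member promoters, 11.1% of 7555 promoters of tested genes and 4.71% of all 27457. CCGGAAG, of the ETS factors to which Gabpa belongs, was in 27.8%, 18.8% and 9.22% of the same sets, and AAGATGGC, of YY1, in 22.2%, 6.21% and 3.44%. GGGCGG, of SP1, was in 43.1%, 64.5% and 34.9%. At least 1 of the first 3 motifs was in 15 of 29 promoters of members higher in SHR and in 24 of the other 38 tested members with a promoter. The same was true of 55.6% of all member promoters and 31.3% of the promoters of tested genes. A match is no proof that a factor binds. The following 4 are shown because Ndufs8, Cox4i1 and Atp5po differed without overlap between SHR and WKY and carry at least 1 of the first 3 motifs, while Cox7b, the member with the largest negative difference in SD-PCB on the deposited scaling, has none of the 4. Capitals mark ETS sites (in Ndufs8, 12 bases before the start; in Cox4i1, 3 and 23 bases past it), and in Atp5po the NRF1 site 59 bases before the start and the YY1 site 1 base past it. Cox4i1 also has GGGCGG at 152 and 45 bases before the start, left in lower case. Positions are chr1:210573649-210573948 (minus strand) for Ndufs8, chr19:65630133-65630432 (plus strand) for Cox4i1, chr11:44657434-44657733 (minus strand) for Atp5po and chrX:75148786-75149085 (plus strand) for Cox7b.
Ndufs8: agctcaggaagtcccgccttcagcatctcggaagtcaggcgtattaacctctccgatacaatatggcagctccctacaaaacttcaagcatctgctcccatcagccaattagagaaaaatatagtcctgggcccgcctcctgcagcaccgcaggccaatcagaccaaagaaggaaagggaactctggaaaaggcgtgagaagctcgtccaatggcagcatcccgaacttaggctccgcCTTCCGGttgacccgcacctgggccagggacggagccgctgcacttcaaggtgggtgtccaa
Cox4i1: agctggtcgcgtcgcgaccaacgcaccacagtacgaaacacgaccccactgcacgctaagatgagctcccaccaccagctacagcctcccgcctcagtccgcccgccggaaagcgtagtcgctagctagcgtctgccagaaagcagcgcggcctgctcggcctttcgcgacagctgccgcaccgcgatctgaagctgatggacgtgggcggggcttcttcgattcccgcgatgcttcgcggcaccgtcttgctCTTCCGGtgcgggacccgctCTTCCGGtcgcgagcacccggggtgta
Atp5po: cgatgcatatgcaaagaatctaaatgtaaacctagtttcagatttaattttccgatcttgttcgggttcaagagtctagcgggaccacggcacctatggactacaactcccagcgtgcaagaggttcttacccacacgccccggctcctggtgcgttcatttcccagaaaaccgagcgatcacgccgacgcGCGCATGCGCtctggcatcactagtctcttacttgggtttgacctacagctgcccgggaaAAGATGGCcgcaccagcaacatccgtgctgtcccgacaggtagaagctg
Cox7b: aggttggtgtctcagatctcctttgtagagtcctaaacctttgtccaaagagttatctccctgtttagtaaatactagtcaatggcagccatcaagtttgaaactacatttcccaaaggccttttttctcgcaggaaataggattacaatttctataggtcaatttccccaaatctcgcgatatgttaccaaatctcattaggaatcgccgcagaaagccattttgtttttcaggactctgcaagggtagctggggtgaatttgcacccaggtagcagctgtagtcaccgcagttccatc

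The second comparison asks how exposure to polychlorinated biphenyls differs from no exposure in the same stock. Fewer members differed: 2 of 73 were higher and 12 lower in SD-PCB, beside 14.8% higher and 13.5% lower of all genes. Centring arrays on their median turned this to 66 higher and none lower, beside 75.3% and 1.05% of all genes. It also turned the sign of all 12 lower members, so every "lower" below holds for the deposited scaling only, and after quantile normalization 9 of the 12 still passed as lower. The share of lower members, 16.4%, was near that of all genes. The median difference was -0.09 over the members, 0.00 over all genes and 0.08 over the brightest genes; centred, it was 0.64 over the members and 0.73 over all genes. The members' median thus lay 0.09 below that of all genes, and 0.25 below it after quantile normalization.

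Cox7b, a small complex IV subunit, had the largest difference, with signals of 12700 to 27860 (median 15680) in SD-PCB and 23280 to 35200 (median 26200) in SD. Only the SD-PCB vermis array reached the range of SD, and the difference of -0.69 ± 0.09 (adjusted p = 5.17e-06, limma) was negative in all 6 regions. It is among the brightest probe sets, and after quantile normalization its difference was -0.10 and did not pass (adjusted p = 0.17, limma). SHR (16170 to 23840) and WKY (14400 to 32770) were also below SD within every region, on the deposited scaling. Their ranges overlap with that of SD.

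Atp5f1e, a subunit of the central stalk of the synthase, had signals of 4429 to 9738 (median 5219) in SD-PCB and 8085 to 11210 (median 8800) in SD. The 5 SD-PCB arrays other than vermis lay below all SD arrays (-0.65 ± 0.13, adjusted p = 6.47e-04, limma), and in the vermis the sign was the opposite (0.27). Atp5mf, in the membrane part, had 4356 to 6596 (median 4923) in SD-PCB and 5168 to 9777 (median 8360) in SD (-0.65 ± 0.13), and again was positive in the vermis (0.35). Atp5f1b, the catalytic subunit, was lower in all 6 regions (-0.48 ± 0.11, adjusted p = 0.0028, limma), with signals of 5484 to 10400 (median 8396) in SD-PCB and 10210 to 13140 (median 11010) in SD. Atp5mk (-0.34 ± 0.09) and Atp5mc3 (-0.30 ± 0.08), also of the membrane part, completed the 5 lower members of complex V, which had none higher. After quantile normalization the difference of Atp5mc3 turned positive.

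Complex I had 3 lower and 1 higher. Ndufa12, an accessory subunit, had signals of 2943 to 3665 (median 3497) in SD-PCB and 3705 to 5493 (median 4140) in SD. It was the only tested member whose groups did not overlap (-0.32 ± 0.09, adjusted p = 0.012, limma), though without substantia nigra/VTA it no longer passed (adjusted p = 0.063, limma). The share of all genes whose groups did not overlap is not given here. Ndufs4, needed late in the assembly of the complex, had 310 to 641 (median 402) in SD-PCB and 355 to 1034 (median 672) in SD (-0.68 ± 0.20), and Ndufb3 had -0.50 ± 0.11. Ndufa9, at the junction of the 2 arms, was higher in all 6 regions (0.42 ± 0.11, adjusted p = 0.0060, limma), with signals of 3977 to 6916 (median 5284) in SD-PCB and 3598 to 4110 (median 3929) in SD. Its second, dimmer probe set had 0.14 ± 0.22 and did not pass, nor did the mean of both (0.28). The other higher member was Sdhd, a membrane anchor of complex II (0.37 ± 0.12, adjusted p = 0.021, limma), with signals of 2411 to 3977 (median 3304) in SD-PCB and 2097 to 2752 (median 2402) in SD. Leaving out dorsal striatum, prefrontal cortex or ventral striatum ended its call (adjusted p of 0.054 to 0.087, limma). Uqcrh (-0.33 ± 0.12) and Uqcrq (-0.31 ± 0.10) of complex III and Cox6c of complex IV (-0.30 ± 0.11) were lower, and for Uqcrh leaving out hippocampus, prefrontal cortex, substantia nigra/VTA or ventral striatum ended the call (adjusted p of 0.062 to 0.23, limma).

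Regions disagreed for this comparison. The median over the members was -0.51 in substantia nigra/VTA (7 of 73 positive), -0.25 in hippocampus (15), -0.19 in ventral striatum (24), 0.02 in dorsal striatum (39), 0.06 in prefrontal cortex (43) and 0.21 in vermis (57). Over all genes the corresponding medians were -0.17, -0.01, 0.00, 0.08, 0.03 and 0.04. The most negative median is thus in substantia nigra/VTA, where the SD-PCB array had the lowest Th and Slc6a3 of the 4 groups. Both arrays of that pair enter the difference. Against the other 5 regions of the same group, the members' median there was -0.13 in SD-PCB and 0.37 in SD. For hippocampus it was -0.29 in SD-PCB and -0.08 in SD. Without the SD-PCB substantia nigra/VTA array 3 members were higher and 9 lower, with a median of -0.03. Of all genes 14.5% were higher and 11.6% lower without it, with a median of 0.03. The medians by region rest on 1 array against 1 array and have no test.

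**Figure D3:**
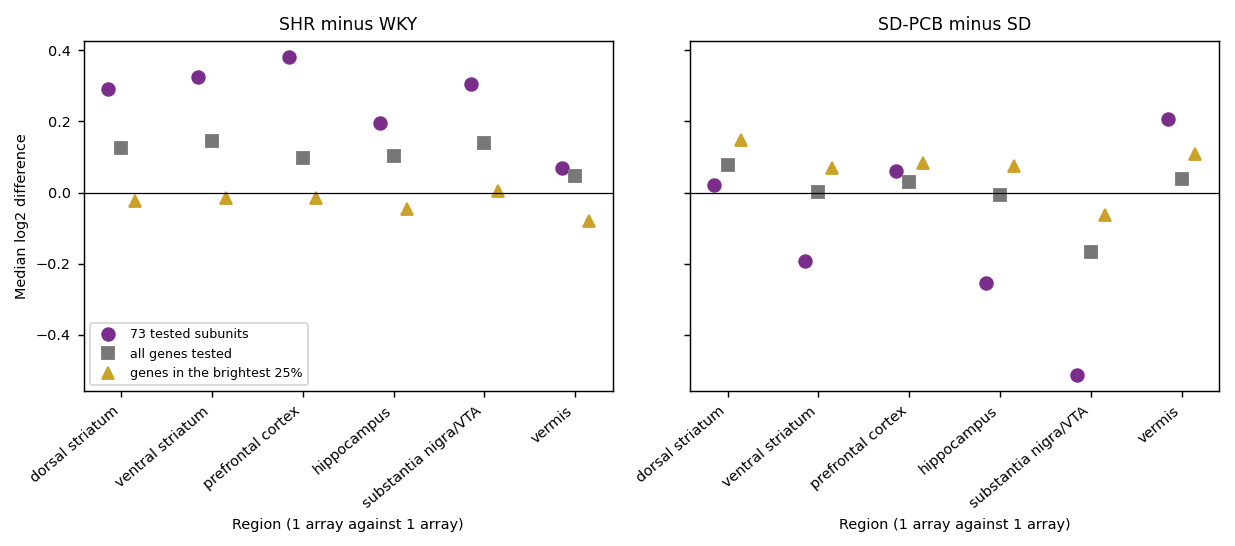
Median log2 difference over the 73 tested subunits (circles), all tested genes (squares) and genes in the brightest 25% (triangles) in each region, for SHR minus WKY (left) and SD-PCB minus SD (right). In SHR the subunits lie above both gene sets in all 6 regions, by little in the vermis, and in SD-PCB they run between -0.51 in substantia nigra/VTA and 0.21 in vermis; centring arrays on their median would move the 3 symbols of a region together.

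Other lists are to be read beside the 14.8% higher and 13.5% lower of all genes (centred, 75.3% and 1.05%). Of the 14 glycolytic genes none was higher and 5 were lower in SD-PCB (Aldoc -0.47 ± 0.09, Pgk1 -0.46 ± 0.10), though after centring 13 were higher and none lower, and of the 73 mitochondrial ribosomal proteins 6 were higher and 6 lower (centred, 65 and none). The pore Vdac1 was lower (-0.62 ± 0.10) and Vdac2 and Vdac3 higher (0.21 ± 0.07 and 0.25 ± 0.09). Centred, 12 of the 13 carriers and pores were higher and none lower. Assembly factors had 8 higher and 1 lower of 38 (centred, 34 and none), and the coactivator Ppargc1b was lower (-1.37 ± 0.26). Markers of astrocytes were lower for 6 of 8 genes (summed signal 49940 to 91080 in SD-PCB, 69930 to 95260 in SD) and of oligodendrocytes for 4 of 7 (37010 to 60240 in SD-PCB, 50480 to 89490 in SD), while 4 of 5 vessel markers were higher (4212 to 6906 in SD-PCB, 1837 to 5530 in SD). Centred, 4 astrocyte and 2 oligodendrocyte markers were higher and none lower. Their part in the subunit differences was not tested.

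Both inbred strains were also set against SD, on the same SD arrays, so these values are not independent of the above. In SHR minus SD 27 members were higher and 5 lower (24.4% and 11.3% of all genes), with a median of 0.22 beside 0.13 over all genes. In WKY minus SD 6 were higher and 5 lower (9.18% and 7.75% of all genes), with medians of -0.03 and 0.05. Centred on array medians, 45 were higher and none lower (57.3% and 1.82% of all genes), and 4 of the 5 lower ones turned positive. Uqcr10 led in SHR (1.26 ± 0.17; 0.39 ± 0.17, not past the threshold, in WKY), followed by Ndufs7 (1.11 ± 0.14 in SHR, 0.42 ± 0.14 in WKY) and Ndufa11 (1.06 ± 0.17 in SHR, 0.69 ± 0.17 in WKY). Ndufs1 was lower in SHR minus SD (-0.35 ± 0.10) and Cox7b in both (-0.58 ± 0.09 in SHR, -0.62 ± 0.09 in WKY, neither past the threshold after quantile normalization).

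**Figure D4:**
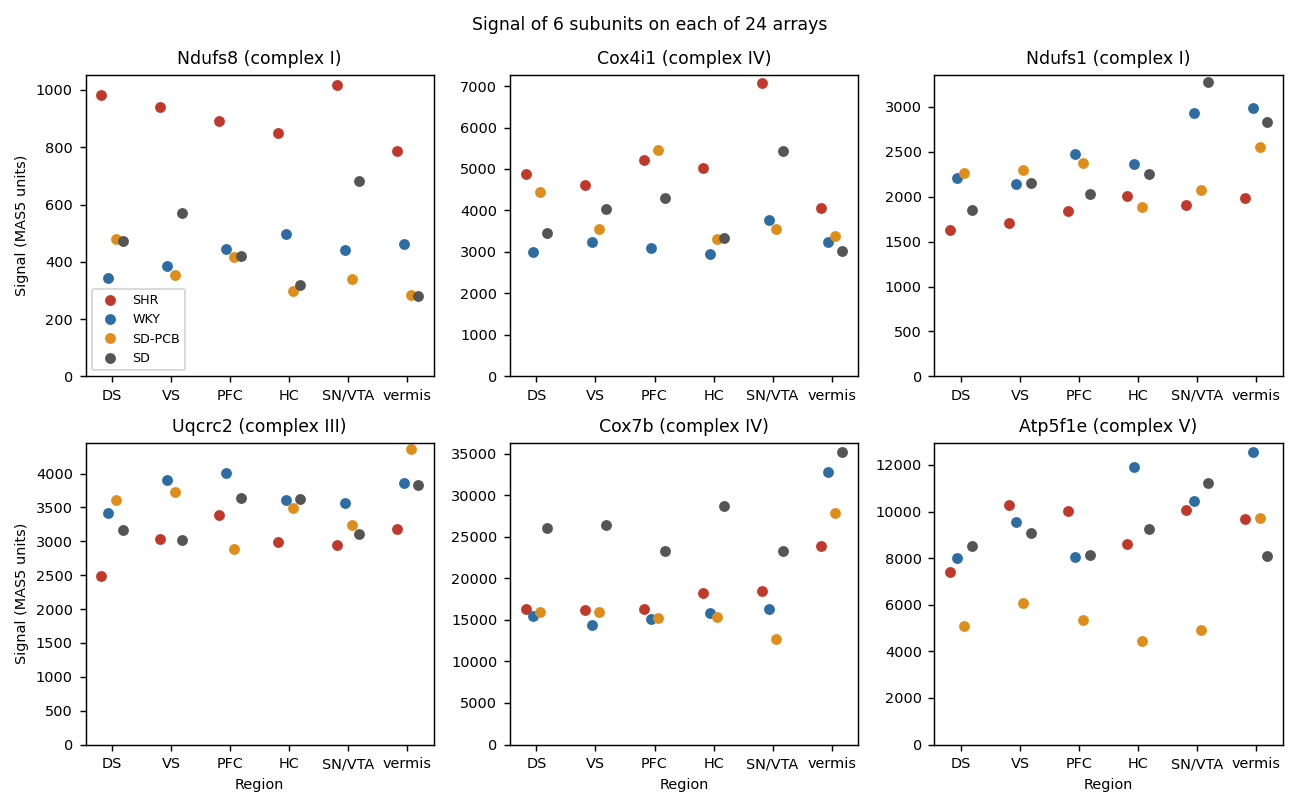
Signal (MAS5 units, axis from 0) of 6 subunits on each of the 24 arrays, by region (DS, VS, PFC and HC as above) and group (colour). Ndufs8 and Cox4i1 show SHR above WKY in all 6 regions, Ndufs1 and Uqcrc2 SHR below WKY, Cox7b SD above the other groups in 6 regions, and Atp5f1e SD-PCB below SD in 5 regions; centring arrays on their median turned the SD-PCB minus SD difference of Cox7b and Atp5f1e positive.

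Among regions, each set against the mean of the other 5, substantia nigra/VTA and vermis had the most members past the threshold. In substantia nigra/VTA 18 members were higher (24.7%) and 1 lower (1.37%), beside 19.5% and 13.8% of all genes and 24.8% and 17.6% of the brightest genes. Centring arrays on their median gave 41 higher and none lower, beside 31.9% and 7.31% of all genes. On the deposited scaling the share of higher members was close to that of the brightest genes. The median was 0.19 over the members, 0.06 over all genes and 0.06 over the brightest. Complex I held 12 of the 18. Ndufa3, an accessory subunit, had signals of 6861 in SHR, 3904 in WKY, 2434 in SD-PCB and 4942 in SD there, and its difference was 0.65 ± 0.14 (n = 4 groups, adjusted p = 0.0012, limma). Ndufa8 had 4152 in SHR, 2874 in WKY, 2987 in SD-PCB and 3893 in SD (0.48 ± 0.12), and Ndufa11 2309 in SHR, 1880 in WKY, 1019 in SD-PCB and 1864 in SD (0.61 ± 0.17). Sdhc of complex II was higher in all 4 groups (0.41 ± 0.09, adjusted p = 8.92e-04, limma), and Uqcr11 of complex III was the lower member (-0.36 ± 0.10).

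The 4 groups did not do the same in substantia nigra/VTA. Members had a median difference of 0.24 in SHR, 0.23 in WKY and 0.37 in SD, with 64 to 68 of 73 positive, and of -0.13 in SD-PCB, with 13 positive. Without the SD-PCB array of that region 29 members were higher and none lower, with a median of 0.29, beside 20.3% and 12% of all genes. Leaving out all SD-PCB arrays gave 33 past the threshold, and leaving out those of SHR or of SD gave 7 each and of WKY 10, so the count depends on the groups in the fit. Of all genes 21.2% were higher and 12.7% lower without SD-PCB. Without another group 13.3% to 13.4% were higher and 9.61% to 11.6% lower. Markers of oligodendrocytes were higher there for 5 of 7 genes (summed signal 46360 to 89490 in that region), of meninges for 5 of 7 (7058 to 22160) and of vessels for 4 of 5 (3434 to 6077), and the 1 blood marker tested was higher too. Their part was not tested.

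The vermis had 20 members higher (27.4%) and 11 lower (15.1%), beside 19.3% and 29.7% of all genes and 26.7% and 31.6% of the brightest genes, with a median of 0.05 over the members and -0.07 over all genes. The share of higher members was close to that of the brightest genes. Centred on array medians, 3 were higher and 33 lower, beside 7.46% and 49.9% of all genes, and 7 of the 20 turned negative. On the deposited scaling the complexes had different counts. Complex V had 10 higher and 2 lower of 16 with a median of 0.29, complex I 7 higher and 4 lower of 35, complex IV 2 and 2 of 11, and complex III 1 higher and 3 lower of 7. No member of complex II passed. Microglial markers were lower in the vermis for 5 of 7 genes (summed signal 861 to 1226 in that region), oligodendrocyte markers higher for 1 and lower for 4 of 7 (44260 to 61020) and neuronal markers higher for 4 and lower for 3 of 8 (66750 to 86560), and their part was not tested.

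Cox7b had signals of 23840 in SHR, 32770 in WKY, 27860 in SD-PCB and 35200 in SD in the vermis, each the highest of its group (0.73 ± 0.08, adjusted p = 1.31e-07, limma). Ndufc2, an accessory subunit of complex I, had 12800 in SHR, 16010 in WKY, 17500 in SD-PCB and 16490 in SD (0.69 ± 0.07, adjusted p = 2.39e-08, limma), and the acyl carrier protein Ndufab1 0.54 ± 0.09. In the synthase, Atp5mc3, which encodes the c subunit of the rotor, was higher by 0.54 ± 0.08 and Atp5mg by 0.54 ± 0.09. Its inhibitor Atp5if1 went the other way, with signals of 861 in SHR, 622 in WKY, 586 in SD-PCB and 387 in SD in the vermis and a difference of -0.79 ± 0.13 (adjusted p = 3.56e-05, limma). Its second, dimmer probe set had -0.14 ± 0.23 and did not pass. Uqcr10 (-0.70 ± 0.16) and Atp5f1d (-0.56 ± 0.12) were also lower, in all 4 groups. Cox6b2 (-1.36 ± 0.40) is a dim probe set with differences of -3.70 to 0.11 over the groups, the lowest in SD.

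**Figure D5:**
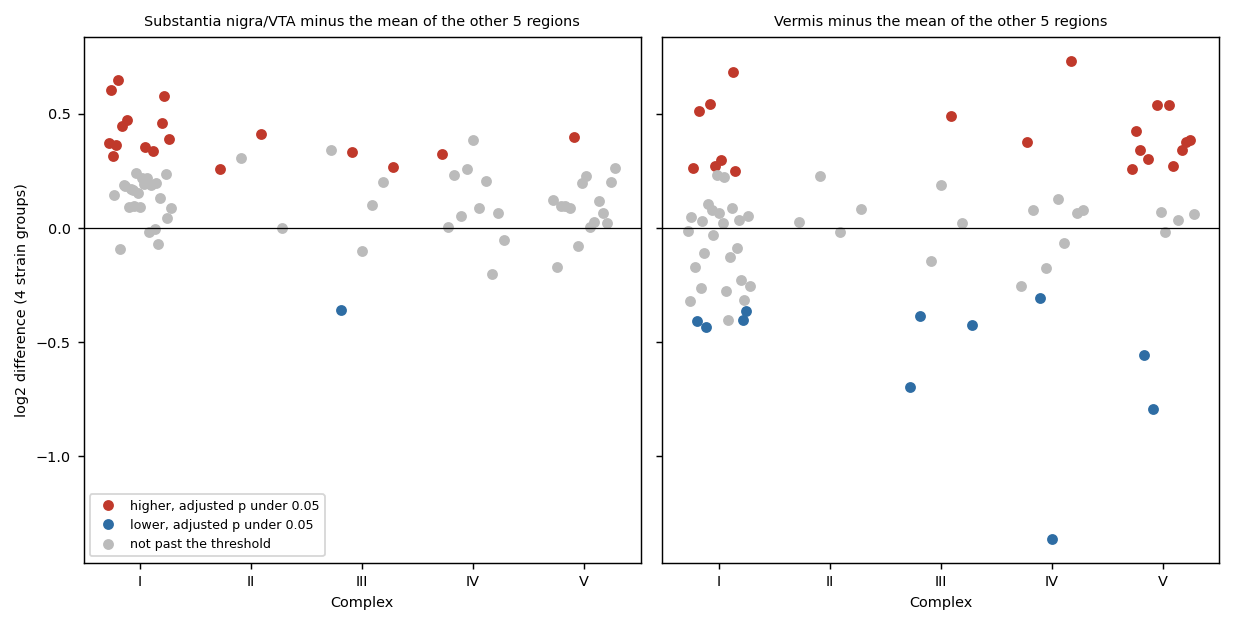
Log2 difference of each tested subunit in substantia nigra/VTA (left) and vermis (right) minus the mean of the other 5 regions, by complex; red and blue mark members past the threshold. Complex I holds 12 of the 18 higher members in substantia nigra/VTA, and complex V holds 10 of the 20 in the vermis, on the deposited scaling. Centring arrays on their median gave 41 higher in substantia nigra/VTA, beside 31.9% of all genes. In the vermis it gave 3 higher and 33 lower, beside 7.46% and 49.9% of all genes.

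The other 4 regions had few members past the threshold. In dorsal striatum 1 was higher (Uqcr11 0.31 ± 0.10) and 3 lower (Ndufa11 -0.49 ± 0.17, Uqcrfs1 -0.37 ± 0.10, Ndufb6 -0.31 ± 0.10), beside 10.5% and 9.32% of all genes. In prefrontal cortex 1 was higher (Atp5f1d 0.41 ± 0.12) and 3 lower (Ndufc2 -0.27 ± 0.07, Ndufa4 -0.25 ± 0.07, Sdhc -0.25 ± 0.09), beside 11.4% and 10.1% of all genes, and without the WKY array with cerebellar transcripts Sdhc no longer passed. Centred on array medians, 7 members were higher in prefrontal cortex and none lower, beside 18% and 4.14% of all genes. In hippocampus none was higher and only Ndufc2 was lower (-0.29 ± 0.07), beside 6.79% and 4.23% of all genes. In ventral striatum none passed the limma test in either direction, beside 5.21% and 2.84% of all genes, with 1 member at an unadjusted p under 0.05 and 1 past the threshold with array weights. Ndufc2 was thus lower in prefrontal cortex and hippocampus and higher in vermis, and these regions enter each other's comparison.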

How the data were processed

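The deposited values are intensities, 1 per probe set and array, and per the submitters' processing notes they are MAS5 signals. RNeasy columns and the Ovation labelling kit were used, per the labels. The MAS5 version, detection calls and scan batches are not given in the sources used here. Control probe sets (57 of 31099) did not enter. Signals were taken as log2(signal + 1), and probe sets at or above the median of mean log2 signal (about 116 in signal) were tested with limma 3.58.1 in R 4.3.3 (group and region as terms, eBayes with a trend, two-sided, 15 residual degrees of freedom). The number of arrays limits the precision. Gene symbols came from the platform annotation, and 7 probe sets with several symbols were left out (those of Atp5mc1, Cox7a2, Atp5mc2, Uqcrb, Ndufs5 and Ndufa10, and one of Cox5a). The fit was also run on simulated data with independent noise per probe set and known differences added to SHR. Differences in array brightness between groups were not simulated, so that run cannot speak to the choice of scaling. Members, lists, tests and naming rules were chosen with earlier results of these data known. The rule names, per comparison, the 3 largest rises and falls that passed and kept 1 sign throughout the regions or groups, the 2 smallest p-values per complex in SHR minus WKY and SD-PCB minus SD, isoform pairs, and the 2 largest differences of each other list; further members named were chosen after their values were seen. Alternatives are given in the closing section.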

Additional observations from a re-analysis of the deposited data

Results flagged for a closer look

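Within a group of 6 arrays (1 per region), 1 array stood far from the other 5 for 19 of 192 combinations of group and item looked at (47 named members and their median, Dixon's criterion, which chance meets in about 1 of 20 groups). Most were the vermis array. Cox7b was far higher in vermis in SHR (23840, next 18430), WKY (32770, next 16300) and SD-PCB (27860, next 16010). The vermis was also high for Atp5f1b (14140), Atp5mc3 (18130) and Cox6c (13290) in WKY and for Atp5mc3 (16300), Atp5pd (11170) and Ndufc2 (17500) in SD-PCB. It was low for Atp5if1 (387), Atp5mf (5168), Cox6b2 (10.6), Ndufb7 (1301) and Uqcrq (2425) in SD, and for the dim Cox7a1 (13.6) in SD-PCB. The substantia nigra/VTA array was high for Atp5po (6139), Ndufa11 (1864) and Sdhc (3138) in SD and for Sdha (3142) in SHR.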

How the results depend on the processing

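Quantile normalization, adding 16 to the signal, testing all probe sets or the upper 25%, 1 probe set per gene and the mean of a member's probe sets kept all 10 counts of members past the threshold within 1.5 times. A similar count need not hold the same members. After quantile normalization all 33 higher and 2 lower members in SHR minus WKY still passed with the same sign. In SHR minus SD 25 of 27 higher and 2 of 5 lower members did, and in WKY minus SD 2 of 6 and 0 of 5. In substantia nigra/VTA 13 of the 18 higher members did, and in vermis 13 of 20 higher and 8 of 11 lower. Centring arrays on their median moved the count to 23 for SHR minus WKY (7 shared with the 35), 66 for SD-PCB minus SD, 45 for WKY minus SD, 1 for dorsal striatum, 7 for prefrontal cortex and 41 for substantia nigra/VTA. Of all genes, centring gave 4.5% higher and 33.6% lower in SHR minus WKY, 75.3% and 1.05% in SD-PCB minus SD, and 57.3% and 1.82% in WKY minus SD. It gave 8.07% and 8.6% in dorsal striatum, 18% and 4.14% in prefrontal cortex, and 31.9% and 7.31% in substantia nigra/VTA. It turned all 12 lower members in SD-PCB minus SD, 4 of the 33 higher ones in SHR minus WKY, 4 of the 5 lower ones in WKY minus SD and 7 of the 20 higher ones in vermis. Among the genes named by the rule, whether past the threshold or not, it turned in SD-PCB minus SD Cox7b (0.033), Atp5f1b (0.25), Ndufa12 (0.41), Ndufb3 (0.23), Sdha (0.53), Uqcrq (0.42), Uqcrh (0.39), Cox6c (0.42), Atp5f1e (0.074) and Atp5mf (0.078), and Ndufa4 in WKY minus SD (0.17). Quantile normalization turned Atp5mc3 in SHR minus SD (0.039), and also in SD-PCB minus SD, where the rule did not name it. With the array's median signal as a covariate, 6 members passed in SHR minus WKY (24 at an unadjusted p under 0.05). In SD-PCB minus SD 0 passed (2 at an unadjusted p under 0.05), in WKY minus SD 0 (1) and in prefrontal cortex 0 (7). The substantia nigra/VTA had 6 and the vermis 8, and Ndufa11 in WKY minus SD turned (-0.048). This covariate moves with the groups. Under it 0% of all genes passed either way in SD-PCB minus SD, so the 0 there is not particular to the subunits. For SHR minus WKY the covariate left 3.84% of all genes higher and 1.63% lower, and for WKY minus SD 0.144% and 0.189%. Prefrontal cortex had 7.39% of all genes higher and 6.74% lower. For the vermis these shares were 8.48% and 12.9%, while substantia nigra/VTA had 10.7% and 9.26%. Array weights gave 26 for WKY minus SD, 14 for dorsal striatum, 1 for ventral striatum, 12 for prefrontal cortex and 32 for substantia nigra/VTA, and no trend gave 1 for dorsal striatum. Of all genes, weights gave 14.8% higher and 11.9% lower in WKY minus SD, 15% and 14% in dorsal striatum, and 9.41% and 6.58% in ventral striatum. They gave 14.5% and 15.1% in prefrontal cortex and 23.8% and 15.8% in substantia nigra/VTA. The fit with no trend gave 10.2% and 8.54% in dorsal striatum. Without a region term 20 members passed in SHR minus WKY, 6 in SD-PCB minus SD, 21 in SHR minus SD and 1 in WKY minus SD. Of all genes 7.71% were then higher and 4.72% lower in SHR minus WKY, and 4.85% and 5.96% in SD-PCB minus SD. In SHR minus SD the shares were 10.5% and 4.07%, and in WKY minus SD 1.99% and 2.34%. Leaving out each region gave 27 to 41 for SHR minus WKY, 10 to 23 for SD-PCB minus SD and 4 to 19 for WKY minus SD, each highest without the vermis, and 26 to 32 for SHR minus SD. Of all genes 12.8% to 24.3% were then higher and 8.89% to 14.7% lower in SHR minus WKY, and 10.3% to 15.8% and 10% to 15.5% in SD-PCB minus SD. The shares were 5.09% to 10.2% and 4.93% to 9.32% in WKY minus SD, also highest without the vermis. In SHR minus SD they were 17.5% to 23.6% and 8.25% to 11.1%. Leaving out each group gave 1 to 6 for dorsal striatum, 1 to 6 for prefrontal cortex, 0 to 1 for hippocampus (0 without WKY), 7 to 33 for substantia nigra/VTA, and 21 to 31 for vermis. Of all genes 7.04% to 9.14% were then higher and 5.66% to 9.69% lower in dorsal striatum, and 8.27% to 9.17% and 6.24% to 8.14% in prefrontal cortex. The shares were 3.93% to 6.53% and 2.04% to 4.22% in hippocampus. They were 13.3% to 21.2% and 9.61% to 12.7% in substantia nigra/VTA, and 15.3% to 17.6% and 24.6% to 28% in vermis. Without the SD-PCB substantia nigra/VTA array, an alternative chosen after seeing the data like that without the WKY prefrontal cortex array, 29 passed in that region. The cause of these shifts was not tested. Arrays of 1 region are paired between groups by the region term, and the counts without that term are those above.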
